A study of Mus musculus with 9 samples.

Results

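The 10 genes described here encode the glycosidases of the intestinal brush border (Sis, Lct, Mgam and Treh), sodium-coupled sugar carriers of the SGLT family (Slc5a1, Slc5a4a and Slc5a4b) and facilitative sugar carriers of the GLUT family (Slc2a2, Slc2a5 and Slc2a7). They were taken by gene name from the 54532 genes of a count table of mouse duodenal RNA. The series compared 4 WT mice with 5 mice labelled Pla2g12b mutant, all male, age matched and of the strain C57BL/6, and all kept on regular chow for 3 months. The series title names the dominant negative substitution C129Y in Pla2g12b, an enzymatically inactive member of the secreted phospholipase A2 family, and no sample label states the change carried by the mutants, its number of copies or the age of the mice. The labels give the tissue as duodenum and do not say whether the mucosa was separated from the wall.

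Starch, sucrose, lactose and trehalose are absorbed only after they have been split into single sugars at the apical membrane of enterocytes. Glucose and galactose then enter the cell with sodium through SGLT1, fructose enters through GLUT5, and all of them can leave through GLUT2 in the basolateral membrane. In the mouse duodenum these genes are active mainly in villus enterocytes, under factors of the CDX, HNF1, HNF4 and GATA families.

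Proximal promoter sequence is shown for 5 of the genes, chosen by their fold changes between the genotypes and their base composition. Sis, Slc2a5 and Slc5a4b had the largest fold changes of the 10, and Lct and Mgam were not called. The sequences are from RefSeq (GRCm38.p6), run 5′ to 3′ on the strand of the gene, and hold the 250 bases before its RefSeq start, which for Slc2a5 and Slc5a4b is not the start in the count table. They lie at chr3:72967864-72968113 (minus strand, Sis), chr1:128328319-128328568 (minus, Lct), chr6:40628581-40628830 (plus, Mgam), chr4:150119094-150119343 (plus, Slc2a5) and chr10:76111019-76111268 (minus, Slc5a4b). Capitals mark matches on either strand to TTTAT or TTTAC (letters bound by CDX factors), GTTAAT (part of the HNF1 site) and GATAA (GATA factors).
Sis: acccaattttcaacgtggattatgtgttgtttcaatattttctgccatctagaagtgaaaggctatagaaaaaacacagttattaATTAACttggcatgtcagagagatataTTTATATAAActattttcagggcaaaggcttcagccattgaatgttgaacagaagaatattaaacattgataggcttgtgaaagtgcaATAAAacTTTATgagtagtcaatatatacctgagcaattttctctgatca
Lct: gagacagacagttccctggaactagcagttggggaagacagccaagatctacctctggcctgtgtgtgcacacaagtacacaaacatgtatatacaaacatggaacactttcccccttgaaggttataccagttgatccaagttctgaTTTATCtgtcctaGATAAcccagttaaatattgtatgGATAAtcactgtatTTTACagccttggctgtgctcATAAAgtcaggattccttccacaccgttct
Mgam: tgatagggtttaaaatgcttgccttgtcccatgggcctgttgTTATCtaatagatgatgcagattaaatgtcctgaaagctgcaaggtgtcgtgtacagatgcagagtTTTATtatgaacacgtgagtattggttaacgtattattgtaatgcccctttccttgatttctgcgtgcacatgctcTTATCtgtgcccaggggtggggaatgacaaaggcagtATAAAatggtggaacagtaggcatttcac
Slc2a5: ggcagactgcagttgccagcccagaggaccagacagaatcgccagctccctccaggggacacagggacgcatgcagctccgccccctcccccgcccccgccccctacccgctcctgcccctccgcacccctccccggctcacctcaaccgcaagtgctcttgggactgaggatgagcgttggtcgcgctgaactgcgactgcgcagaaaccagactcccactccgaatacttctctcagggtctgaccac
Slc5a4b: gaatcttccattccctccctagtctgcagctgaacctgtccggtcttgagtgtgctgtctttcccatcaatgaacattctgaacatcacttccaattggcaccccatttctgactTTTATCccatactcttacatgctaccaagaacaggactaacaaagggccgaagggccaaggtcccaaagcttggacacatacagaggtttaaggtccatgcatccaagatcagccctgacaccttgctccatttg

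All 10 genes had an entry in that table. The Sis window held 4 matches to TTTAT, at -138 to -134, -133 to -129, -50 to -46 and -43 to -39 from the start, and the only GTTAAT match among the 10 genes, at -165 to -160. The first pair of those TTTAT matches overlaps matches to the TATA box letters TATAAA. In the Mgam window, too, the TTTAT match at -29 to -25 lies within a TATAAA match, at -30 to -25. The Lct window held 3 GATAA matches, at -101 to -97, -89 to -85 and -65 to -61, of which the first overlaps a TTTAT match, and the Mgam window held GATAA matches at -208 to -204 and -66 to -62. The windows of Slc2a5 and Treh held no match to any of these letters. TTTAT was found in 5 of the 10 windows and in 37.3% of the 32851 windows of this length in the table, TTTAC in 3 of 10 and 28.3%, GATAA in 5 of 10 and 22.6%, and GTTAAT in 1 of 10 and 6.43%. G and C made up 31.6% of the bases in the Sis window and 66.4% in that of Slc2a5, against a median of 52.4% over all windows. A match describes the letters only.

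Libraries held 16119639 to 24009157 counted reads in WT and 16245982 to 17959658 in mutants, and 3 reads amount to 0.191 CPM or less (CPM, read counts scaled for depth and library composition). Within each genotype some libraries were much closer than others: the biological coefficient of variation was 0.0371 to 0.0504 in 4 pairs (WT 1 with 2, WT 3 with 4, mutant 2 with 3, mutant 4 with 5) and 0.179 to 0.254 in the other 12. Nothing in the labels says that a pair shares an animal, so n counts libraries, and counts of calls are also given with each pair summed, which leaves 2 WT and 3 mutant units. The p-values measure the spread between these libraries. RNA levels of marker genes of several cell types also differed between the genotypes. All 13 genes of an acinar pancreas list were lower in mutants, with a summed level of 28324 to 61322 CPM in WT and 0.645 to 2.24 CPM in mutants and none at 0 reads over the group. Genes of goblet and Paneth cells were lower in 9 of 9 cases (5995 to 8385 against 961 to 1799 CPM), immune genes in 9 of 10 (1842 to 1971 against 319 to 737 CPM) and fibroblast genes in 7 of 8 (329 to 352 against 67.1 to 184 CPM). The other immune gene, Itgam, was called higher, from 1.25 to 3.06 CPM (log2 fold change 1.26, SE 0.28, edgeR adjusted p = 0.0051). Endocrine genes were lower in 4 of 8 cases, crypt and cell cycle genes in 1 of 8 and smooth muscle genes in 0 of 8. Over all genes tested, 15.4% were called higher and 17.1% lower. With close pairs summed, 13 acinar, 8 goblet and Paneth, 6 immune and 1 of the fibroblast genes were called lower. In that fit 0 immune genes were higher, and 1 endocrine gene but 0 crypt or smooth muscle genes were lower. Its shares over all genes were 2.23% higher and 6.78% lower. Of 10 epithelial reference genes, 6 were higher, among them the adhesion protein gene Epcam, and 1 with pairs summed (11656 to 14516 against 15867 to 18292 CPM). The microvillus protein gene Vil1 was not called (adjusted p = 0.30). With acinar and immunoglobulin genes removed before scaling, edgeR called the same 6 sugar genes as described next; the part of the other cell types was not tested beyond the scaling to epithelial genes given further on. In bulk RNA, fewer cells of a type and less RNA per cell cannot be told apart.

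Of the 10 sugar genes, 6 were called higher in the mutants over the 9 libraries and none was called lower. None of these calls held with close pairs summed. The largest rises were those of a sugar carrier of the SGLT3 type (Slc5a4b), of the fructose carrier GLUT5 (Slc2a5) and of sucrase-isomaltase (Sis), and smaller ones were seen for SGLT1 (Slc5a1), Slc5a4a and GLUT7 (Slc2a7). Lactase, maltase-glucoamylase, trehalase and GLUT2 did not pass the test. Genes were called by edgeR's quasi-likelihood test where p, adjusted by Benjamini and Hochberg's method for all 15416 genes tested, was under 0.05, and of those genes 15.4% were called higher and 17.1% lower. All 10 passed the filter on low counts. At an unadjusted p under 0.05 the same test had 7 higher and 0 lower, and DESeq2 called 6 higher and 0 lower. With close pairs summed edgeR called 0 of the 10, against 2.23% of all genes higher and 6.78% lower. Under scaling to epithelial genes it called 3 higher, against 2.05% of all genes higher and 38.2% lower. It called 1 without WT 3 and 4 (1451 higher over all genes) and 2 with an offset for gene length (1244 higher over all genes). The median log2 fold change, mutant over WT, was 0.38 over the 10 genes and 0.01 over all genes tested. Together the 10 genes took 0.984% to 1.09% of the counted reads in WT libraries and 1.16% to 1.60% in mutant libraries, a pair of ranges that do not overlap.

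**Figure D1:**
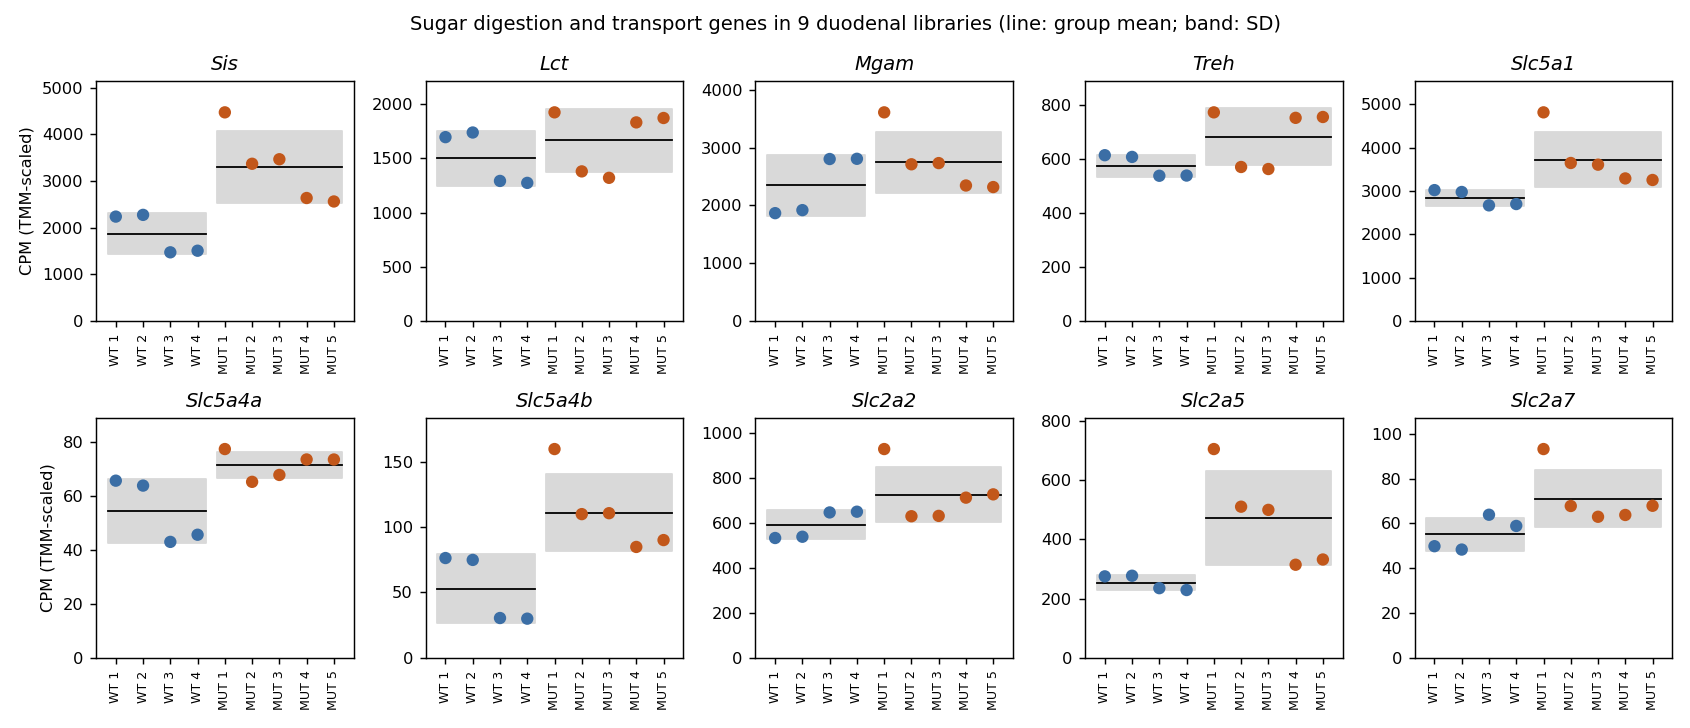
CPM (vertical axis, from 0) of each sugar gene in each library, with WT in blue and mutants in orange; lines are group means and bands 1 SD. Sis, Slc5a1, Slc5a4b and Slc2a5 lie higher in every mutant library than in any WT library, and mutant 1 holds the highest value of every gene.

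Sucrase-isomaltase, which splits sucrose and the branch points of starch, is encoded by Sis (ENSMUSG00000027790, chromosome 3, 72888557 to 72967863, minus strand, GRCm38). Its level was 2237 and 2274 CPM in WT 1 and 2 and 1473 and 1507 CPM in WT 3 and 4. In mutants 1 to 5 it was 4468, 3368, 3465, 2635 and 2561 CPM. Every mutant library lay above every WT library. The group levels were 1873 ± 443 CPM (SD, n = 4) and 3299 ± 772 CPM (SD, n = 5). The log2 fold change was 0.82 (SE 0.20; edgeR adjusted p = 0.0084). The call remained when any single library was left out, but not without WT 3 and 4 together (log2 fold change 0.54, adjusted p = 0.097) or with close pairs summed (0.91, adjusted p = 0.083).

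Maltase-glucoamylase, which releases glucose from the ends of starch chains and is related to sucrase-isomaltase, is encoded by Mgam (ENSMUSG00000068587, chromosome 6, 40628831 to 40769123, plus strand). It was read at 1866, 1919, 2802 and 2806 CPM in WT 1 to 4. The mutants held 3609, 2711, 2732, 2344 and 2317 CPM. The WT pairs differed by 0.57 on the log2 scale in the direction opposite to Sis, whose pairs differed by -0.60 (WT 3 and 4 over WT 1 and 2), and both mutant pairs lay between the WT pairs. On the log2 scale mutants were at 0.22 over WT (SE 0.17, edgeR adjusted p = 0.34). It was -0.03 without WT 1 and 2 and 0.53 without WT 3 and 4, neither of them called (adjusted p = 0.90 and 0.060).

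Lactase, the enzyme that splits milk sugar and that declines after weaning in most mammals, is encoded by Lct (ENSMUSG00000026354, chromosome 1, 128284756 to 128328318, minus strand). Lct stood at 1695, 1738, 1292 and 1274 CPM in WT 1 to 4 and at 1924, 1379.8, 1320.4, 1831 and 1872 CPM in mutants 1 to 5. Mutants 2 and 3 lay within the WT range and the other three above it. The log2 fold change was 0.15 (SE 0.15, edgeR adjusted p = 0.47), and Lct was called only without mutants 2 and 3, at 0.33 (adjusted p = 0.048).

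Trehalase, which splits the disaccharide of fungi and insects, is encoded by Treh (ENSMUSG00000032098, chromosome 9, 44673233 to 44686305, plus strand). Its WT libraries held 613, 607, 537 and 538 CPM and its mutant libraries 771, 569, 562, 751 and 754 CPM. As for Lct, mutants 1, 4 and 5 lay above the WT range and mutants 2 and 3 within it. On the log2 scale Treh differed by 0.25 (SE 0.12, edgeR adjusted p = 0.12). Voom with quality weights and the fit without mutants 2 and 3 called it. Exons of Treh share 2 bases with Phldb1 on the opposite strand, and the libraries do not mark strand.

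SGLT1, which carries glucose and galactose into the enterocyte with sodium, is encoded by Slc5a1 (ENSMUSG00000011034, chromosome 5, 33104219 to 33162870, plus strand). Its values were 3021, 2978, 2669 and 2699.5 CPM in WT 1 to 4. The mutants held 4813, 3646, 3607, 3290.1 and 3254 CPM, all above the WT range. The group levels were 2842 ± 183 and 3722 ± 636 CPM (SD, n = 4 and 5), or 0.39 as a log2 fold change (SE 0.12, edgeR adjusted p = 0.032). The call was lost without WT 1, 3 or 4, without either WT pair (0.47 and 0.31, adjusted p = 0.055 without WT 1 and 2 and 0.21 without WT 3 and 4) and with close pairs summed (0.46, adjusted p = 0.22).

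Slc5a4a and Slc5a4b encode SGLT3 proteins and lie side by side on chromosome 10 in opposite orientation (ENSMUSG00000020229, 76147451 to 76189265, plus strand, and ENSMUSG00000020226, 76057494 to 76110961, minus strand). Human SGLT3 has been described as a glucose sensor rather than a carrier. The longest open reading frames of the mouse genes were identical at 79.6% of aligned bases, yet only 1 of 2006 stretches of 50 bases in the Slc5a4a transcripts also occurred in those of another gene, Slc5a4b. Slc5a4a was at 65.6, 63.8, 43.0 and 45.6 CPM in WT 1 to 4 and at 77.4, 65.2, 67.8, 73.5 and 73.5 CPM in mutants 1 to 5. Mutant 2 lay just below WT 1, so the groups overlapped. Slc5a4b was at 76.3, 74.8, 30.4 and 29.9 CPM in WT and at 159.6, 109.8, 110.5, 84.8 and 90.0 CPM in mutants, which lay above every WT library. WT 3 and 4 thus held less than the other WT pair, by -1.32 on the log2 scale, a wider gap than for any other of the 10 genes. The log2 fold change was 0.39 (SE 0.13, adjusted p = 0.036) for Slc5a4a and 1.07 (SE 0.35, adjusted p = 0.046) for Slc5a4b in edgeR. Without WT 3 and 4 they were 0.14 and 0.55 (adjusted p = 0.29 and 0.12) and without WT 1 and 2 they were 0.69 and 1.87 (adjusted p = 0.00095 and 0.0011). Leaving out any mutant library ended the Slc5a4b call (adjusted p up to 0.081 without mutant 1), as did leaving out WT 3 or WT 4, and leaving out WT 3, WT 4 or mutants 1, 4 or 5 ended that of Slc5a4a.

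GLUT2, the basolateral carrier of glucose, galactose and fructose, is encoded by Slc2a2 (ENSMUSG00000027690, chromosome 3, 28697903 to 28731359, plus strand). Its levels were 534, 539.6, 648 and 651 CPM in WT 1 to 4 and 930.4, 631, 633, 714 and 729 CPM in mutants 1 to 5. Mutants 2 and 3 lay within the WT range. The log2 fold change was 0.29 (SE 0.12, edgeR adjusted p = 0.090), and Slc2a2 was called by voom, without the filter on low counts and without mutants 2 and 3.

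GLUT5, the apical fructose carrier, is encoded by Slc2a5 (ENSMUSG00000028976, chromosome 4, 150119283 to 150144169, plus strand). Its WT libraries held 275, 277, 235 and 229 CPM. Mutants 1 to 5 held 705, 510.1, 499, 314 and 332 CPM, each above the WT range, with mutants 4 and 5 below the others by -0.64 on the log2 scale relative to mutants 2 and 3. The group levels were 254 ± 25.6 and 472 ± 159 CPM (SD, n = 4 and 5), or 0.89 as a log2 fold change (SE 0.22, edgeR adjusted p = 0.011). The call remained without any single library and was lost without WT 3 and 4 (0.77, adjusted p = 0.11), without mutants 2 and 3, and with close pairs summed (1.01, adjusted p = 0.086).

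GLUT7, a relative of GLUT5 in the intestine, is encoded by Slc2a7 (ENSMUSG00000062064, chromosome 4, 150148972 to 150168482, plus strand), the next gene on the same strand. The open reading frames of both genes were identical at 66.0% of aligned bases and their transcripts shared no stretch of 50 bases. Slc2a7 was at 49.8, 48.3, 63.9 and 58.9 CPM in WT and 93.2, 67.8, 63.0, 63.8 and 67.9 CPM in mutants, with mutants 3 and 4 just below WT 3. The log2 fold change was 0.37 (SE 0.13, edgeR adjusted p = 0.048), the call closest to the threshold. It was lost under 16 of 26 alternative fits, among them relative log expression factors and the fits without WT 1, 2 or 4 or mutant 1, 2 or 5.

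Of the 10 genes, 4 had mutant libraries that all lay above the WT libraries (Sis, Slc5a1, Slc5a4b and Slc2a5), which was the case for 14.4% of all genes tested. With close pairs summed, edgeR called none of the 10 (adjusted p from 0.083 for Sis to 0.62), with 4 at an unadjusted p under 0.05, while that fit called 2.23% of all genes higher and 6.78% lower. Voom with a random effect for each pair called 4 of the 10 higher (Sis, Slc5a1, Slc5a4a and Slc2a5), against 7.69% of all genes called higher and 10.7% lower.

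Since 6 of the 10 epithelial reference genes were also called higher, the fit was repeated with each library scaled to the summed reads of those 10 genes. On that scale the median log2 fold change of all genes shifted from 0.01 to -0.33. Sis, at 0.49 (SE 0.13, adjusted p = 0.012), Slc5a4b, at 0.77 (SE 0.26, adjusted p = 0.037), and Slc2a5, at 0.54 (SE 0.18, adjusted p = 0.033), remained called higher, where 2.05% of all genes were higher and 38.2% lower. Slc5a1 was at 0.04 and Slc5a4a at 0.06 on that scale, and Slc2a7 at -0.01, Slc2a2 at -0.08, Treh at -0.10, Mgam at -0.17 and Lct at -0.18, none of them called. Relative to these epithelial genes, then, the directions of the last 5 were opposite to those under TMM scaling. A trend of reads on gene length, fitted in each library as an offset, left Sis (0.81) and Slc2a5 (0.76) called and ended the other 4 calls.

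**Figure D2:**
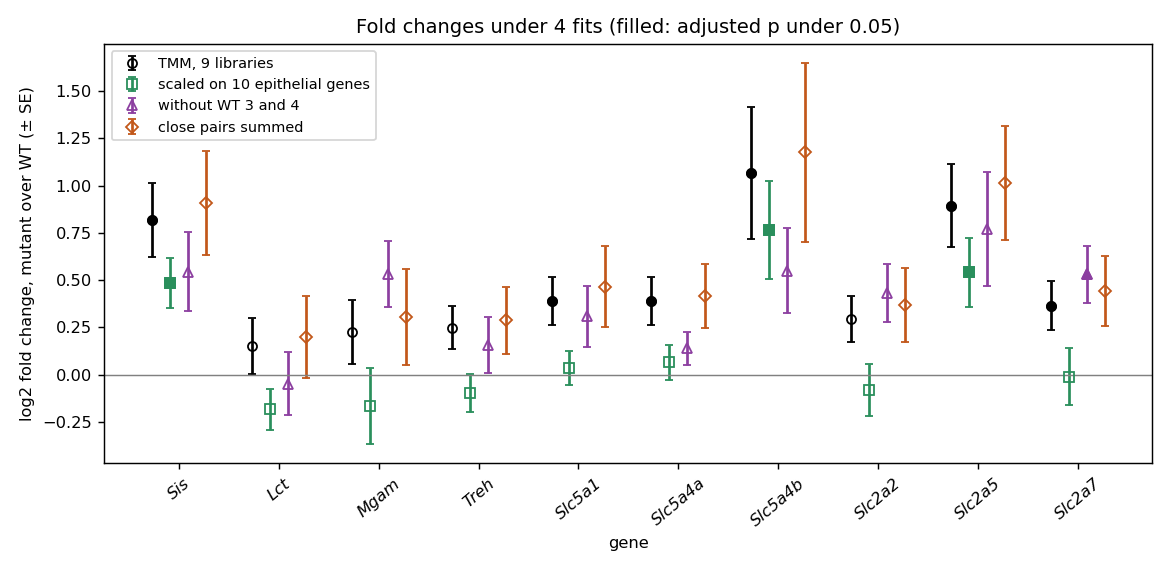
Log2 fold change, mutant over WT, with its SE (vertical axis) for each sugar gene under 4 fits; filled symbols have an adjusted p under 0.05. Under scaling to epithelial genes (squares) Sis, Slc5a4b and Slc2a5 stay at 0.49 to 0.77, while the other 7 lie between -0.18 and 0.06; without WT 3 and 4 (triangles) only Slc2a7 is filled, and with close pairs summed (diamonds) no symbol is.

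Per length of transcript, SGLT1 had the highest level of the 10 in both genotypes. In WT, Slc5a1 was at 692 ± 44.6 RPKM (CPM per kilobase of transcript; SD, n = 4), the 4 glycosidases followed at 234 ± 39.2 (Lct) to 280.1 ± 20.5 RPKM (Treh), and Slc2a2 and Slc2a5 stood at 103 ± 11.3 and 74.7 ± 7.52 RPKM. Slc2a7, Slc5a4a and Slc5a4b were lowest, at 29.6 ± 3.97, 26.5 ± 5.78 and 16.5 ± 8.18 RPKM. The WT ranges of neighbouring glycosidases overlapped, so the libraries do not separate their order. Those of Slc2a7 and Slc5a4a overlapped too, as did those of Slc5a4a and Slc5a4b, although Slc5a4a was above Slc5a4b in each of the 4 WT libraries. In mutants Sis was the second of the 10, at 442 ± 103 RPKM, above Treh in 3 of 5 libraries. Slc2a5, at 139 ± 46.7 RPKM, was above Slc2a2, at 126 ± 21.2 RPKM, in 3 of 5 mutant libraries and in none of the 4 WT libraries.

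**Figure D3:**
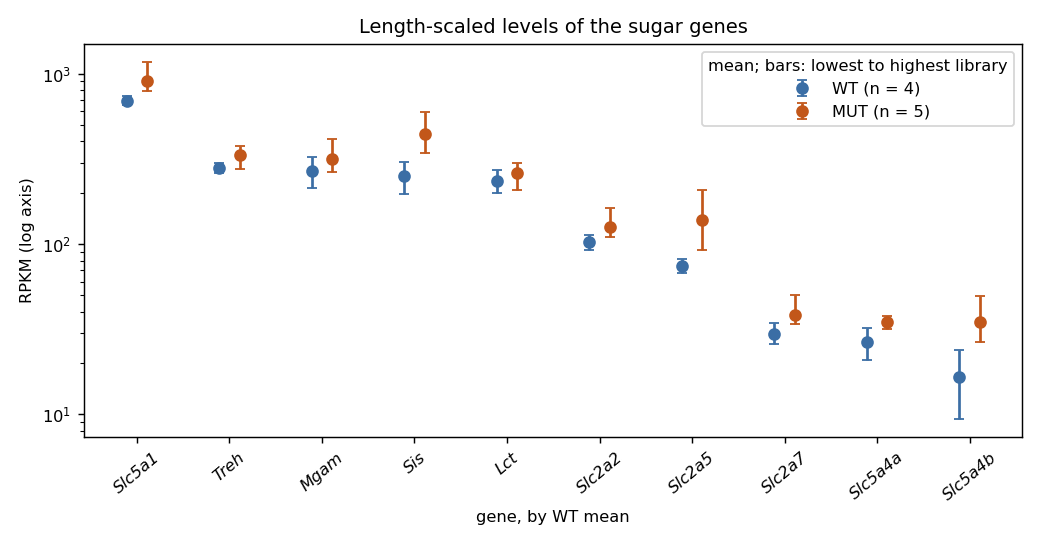
RPKM on a log axis for each sugar gene, ordered by the WT mean; points are group means and bars run from the lowest to the highest library. Slc5a1 lies above all others, the 4 glycosidases overlap in WT, and Sis and Slc2a5 in mutants lie above their WT ranges.

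Whether the genes moved unequally was asked with ratios of reads inside each library, which do not depend on scaling. The 7 pairs compared were chosen with earlier results of these data known, which limits what their p-values can show. None passed after adjustment over the 7 (exact 2-sided permutation over 126 splits, adjusted p from 0.10 to 0.49), and 2 had an unadjusted p under 0.05. Slc5a4b over Slc5a4a was 0.76 higher in mutants on the log2 scale (exact permutation p = 0.032), with log2 ratios of 0.22, 0.23, -0.50 and -0.61 in WT 1 to 4 and 1.04, 0.75, 0.71, 0.21 and 0.29 in mutants. Mutant 4 lay below WT 1 and 2, so these ratios overlapped. Lct over Sis differed by -0.67 (exact permutation p = 0.040), with -0.40, -0.39, -0.19 and -0.24 in WT and -1.22, -1.29, -1.39, -0.53 and -0.45 in mutants, all below WT. Mgam over Sis was -0.26 and -0.25 in WT 1 and 2, 0.93 and 0.90 in WT 3 and 4 and -0.34 to -0.14 in the mutants. WT 1 and 2 thus had the Mgam to Sis ratio of the mutant libraries, and WT 3 and 4 stood apart. With close pairs averaged the smallest p that 10 splits allow is 0.10, and none of the 7 pairs was below 0.20.

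**Figure D4:**
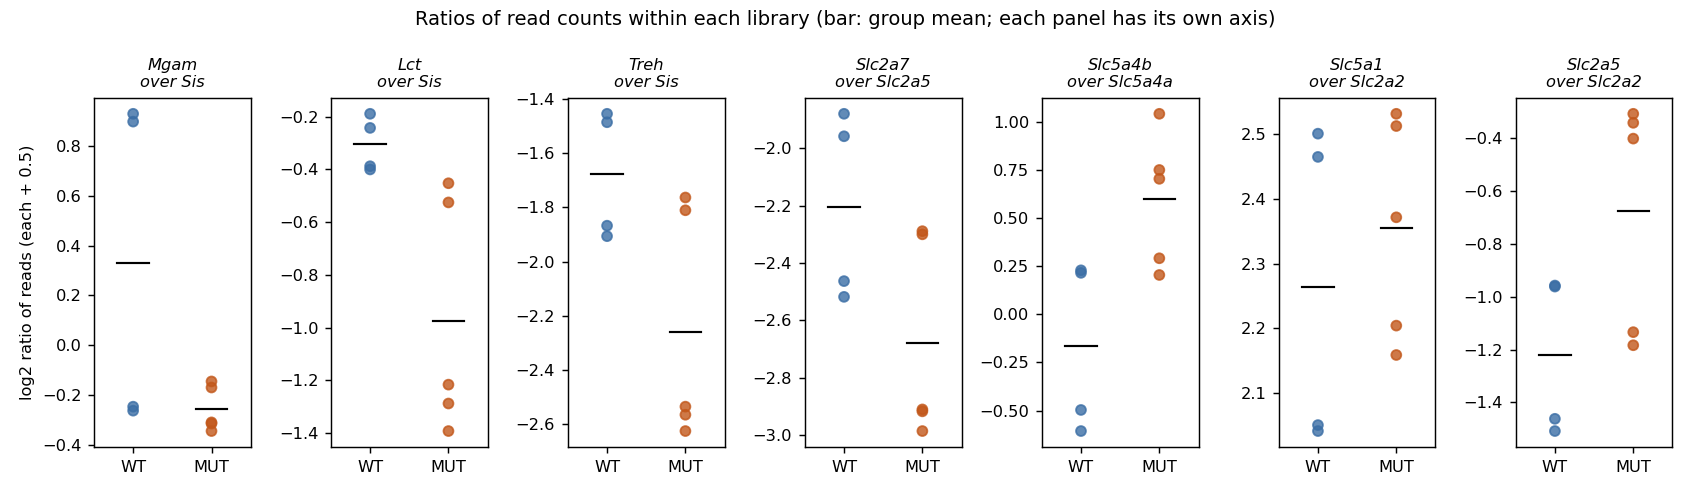
Log2 ratio of reads for 7 pairs of sugar genes (vertical axis, its own scale in each panel) in WT (blue) and mutant (orange) libraries; bars are group means. Lct over Sis is lower in all mutant libraries than in all WT libraries, while for Mgam over Sis a pair of WT libraries lies with the mutants.

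Over the libraries the 10 genes followed different profiles, compared as the root mean square difference between log2 CPM values centred on each gene's own mean. The most alike members were Slc2a2 and Slc2a7 (0.09) and Lct and Treh (0.09), followed by Mgam and Slc2a7 (0.14) and by Sis and Slc2a5 (0.16). Lct and Treh were higher in mutants 4 and 5 than in mutants 2 and 3, by 0.46 and 0.41 on the log2 scale, where Sis, Slc5a4b and Slc2a5 were lower by -0.40, -0.33 and -0.64. Mutant 1 held the highest mutant level of all 10 genes, against 23.4% of all genes tested. On library size alone, without TMM factors, it was highest for 7 of the 10. Among 8387 other protein-coding genes whose mean reached 10 CPM, the profile nearest to Sis was that of the peptide transporter gene Slc15a1 (0.08) and then of Pof1b (0.09). Near to Slc5a1 was the actin gene Actb (0.05). For Lct they were Adgrg7 and Ifi35, for Treh Fuca2 and Adap1, for Mgam Cdc37l1 and Mapk8ip3, for Slc2a2 Atl2 and Fam126b, for Slc5a4a Slc44a4 and Ilvbl, and for Slc2a7 Epha1 and Rhod, all at 0.03 to 0.08. For Slc5a4b the nearest were Xpnpep2, a brush border peptidase, and Guca2a, the precursor of guanylin, at 0.21. The difference is not scaled to a gene's own spread, so it tends to be larger for genes that vary more. Slc5a4b varied most of the 10, from -1.33 to 1.08 around its mean. Sema7a and Tha1 were nearest to Slc2a5, at 0.14 and 0.15.

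**Figure D5:**
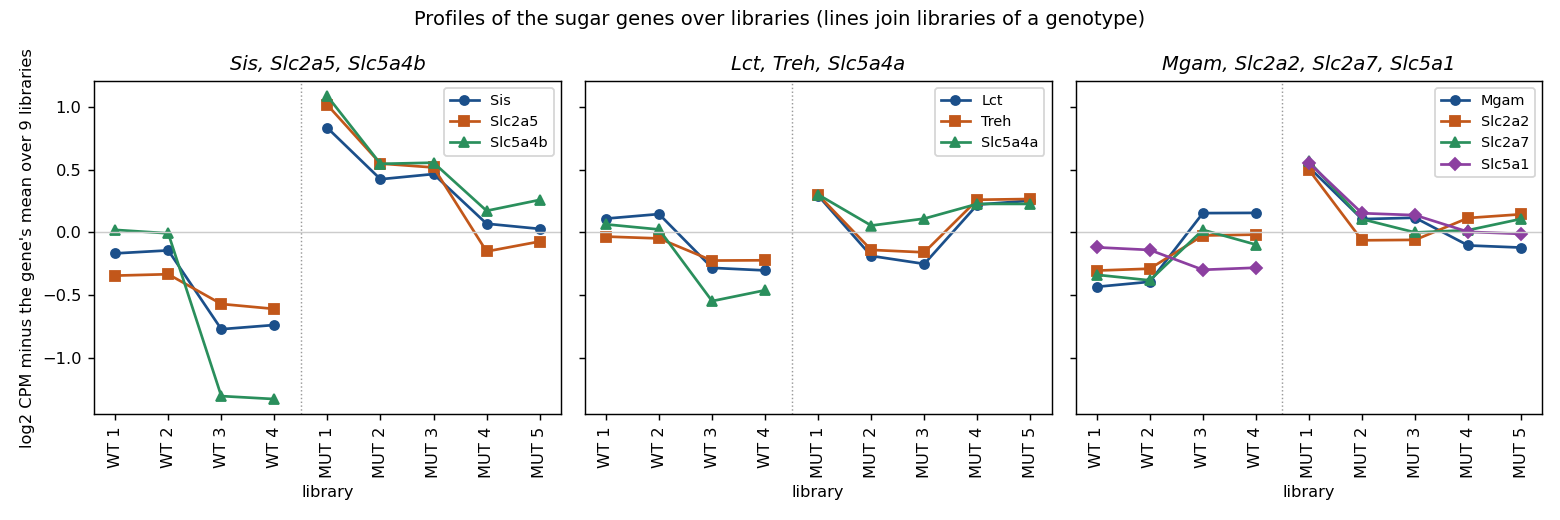
Log2 CPM minus each gene's mean over 9 libraries (vertical axis) by library; lines only join the libraries of a genotype, and the panels group genes by likeness seen in these values. Sis, Slc2a5 and Slc5a4b are lower in mutants 4 and 5 than in mutants 2 and 3, and Lct and Treh the reverse.

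The gene lists that follow were counted in the same fit, in which 15.4% of all genes were higher and 17.1% lower, and again with close pairs summed and under scaling to epithelial genes. Of 8 further GLUT genes tested, 1 was higher and 1 lower (0 and 0 with pairs summed, 0 and 2 under epithelial scaling): the urate carrier Slc2a9 rose by 0.43 on the log2 scale (SE 0.09) and Slc2a3, a carrier of immune and neural cells, fell from 3.46 ± 0.766 to 1.76 ± 0.392 CPM (-0.97, SE 0.24; edgeR adjusted p = 0.0044 and 0.0087). Slc2a1, the carrier of most cell types, was at 14.4 to 18.8 CPM in WT and 16.1 to 23.0 CPM in mutants (0.33, SE 0.13, adjusted p = 0.080). Of 7 further SGLT family genes tested, 3 were higher and 0 lower by edgeR (4 and 0 at an unadjusted p under 0.05, 3 and 0 by DESeq2). With pairs summed none was higher or lower, and under epithelial scaling 1 was higher and 0 lower. Slc5a8, a carrier of short chain acids and other monocarboxylates, was at 2.24, 1.97, 0.185 and 0.175 CPM in WT 1 to 4 and 9.36, 23.3, 23.4, 6.66 and 6.99 CPM in mutants, a log2 fold change of 3.53 (SE 0.76, adjusted p = 0.0078). The sugar carrier SGLT4 (Slc5a9) rose by 0.41 (SE 0.08, adjusted p = 0.0020) and the inositol carrier Slc5a11 by 0.37 (SE 0.13, adjusted p = 0.047). The monocarboxylate carrier Slc5a12 was at 160 and 167 CPM in WT 1 and 2, at 25.1 and 28.8 CPM in WT 3 and 4 and at 110.3 to 192 CPM in mutants (adjusted p = 0.46). Its WT pairs thus stood apart in the same order as those of Slc5a4b, and so did those of Slc5a8.

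Of 13 glycosidases of other compartments, 2 were higher and 3 lower, shares near those of all genes. With pairs summed 0 were higher and 1 lower, and under epithelial scaling 0 and 8. The ER glucosidase subunit Ganab and the lysosomal Hexa were at 0.19 (SE 0.07) and 0.32 (SE 0.09), the lysosomal Man2b1 and Gaa at -0.37 (SE 0.08) and -0.27 (SE 0.09), and the amylase gene Amy1 at -3.81 (SE 0.27), from 9.72 to 0.684 CPM, all called by edgeR. Amy1 has near relatives in the pancreas, whose genes Amy2a5 and Amy2b are among the acinar genes that fell.

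Of 19 genes that use sugars inside the cell, 7 were higher and 2 lower, against 1 and 1 with pairs summed and 2 and 5 under epithelial scaling. Ketohexokinase (Khk), the first step of fructose breakdown, rose from 468 ± 42.2 to 754 ± 43.2 CPM (log2 fold change 0.69, SE 0.08), and Gpi1 rose by 0.37 (SE 0.07). Hexokinase 2 (Hk2) fell by 0.91 (SE 0.25). Khk remained called with close pairs summed, as 1 of 1 higher genes of this list.

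Among 18 tested regulators, 3 were higher and 2 lower, which is near the shares of all genes. None was called with pairs summed, and 0 were higher and 9 lower under epithelial scaling. Mlx and Mlxip, partner factors of the sugar response, went opposite ways, at 0.43 (SE 0.08) and -0.54 (SE 0.10). Their target Txnip fell by 0.39 (SE 0.13, edgeR adjusted p = 0.044). Txnip was at 495, 494, 650 and 657 CPM in WT 1 to 4 and 362 to 510 CPM in mutants, so the groups overlapped. Mlxipl and Arrdc4 of the same list were at 0.065 and 0.0026 and were not called (edgeR adjusted p = 0.76 and 0.98). The thyroid receptor gene Thra and the intestinal homeobox gene Isx rose by 0.22 (SE 0.06) and 0.28 (SE 0.08). Cdx2 was at 174 ± 45.1 and 201 ± 10.8 CPM, Hnf4a at 587 ± 72.8 and 556 ± 19.7 CPM and Gata4 at 170.1 ± 3.93 and 156 ± 14.5 CPM (WT and mutants; SD, n = 4 and 5). None of these factors was called (edgeR adjusted p = 0.31, 0.53 and 0.26). Cdx2 and Hnf4a differed between the WT pairs, at 210 and 216 and at 651 and 649 CPM in WT 1 and 2. In WT 3 and 4 they were at 138 and 133 and at 518 and 530 CPM. Pdx1 of the same list split the other way, at 16.7, 16.3, 47.4 and 45.1 CPM in WT 1 to 4. In mutants 1 to 5 Pdx1 was at 12.6, 2.58, 2.01, 29.8 and 32.4 CPM (edgeR adjusted p = 0.40). The sweet taste receptor subunit gene Tas1r3 was at 1.74 and 1.46 CPM, and Tas1r2 did not pass the filter.

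Of 9 genes for the sodium gradient and the apical scaffold, 3 were higher and 0 lower by edgeR (4 and 0 at an unadjusted p under 0.05, 3 and 0 by DESeq2). With pairs summed none was called, and under epithelial scaling 0 were higher and 3 lower. Among the 3 higher genes were the sodium pump subunit gene Atp1b1, at 0.32 (SE 0.10), and the sodium-proton exchanger Slc9a3, at 0.38 (SE 0.11). Of 10 brush border peptidases, 5 were higher and 0 lower (7 and 0 at an unadjusted p under 0.05, 7 and 0 by DESeq2), against 1 with pairs summed and 3 under epithelial scaling. Among them, by log2 fold change, were Xpnpep2 at 0.94 (SE 0.27), Dpp4 at 0.88 (SE 0.13), Enpep at 0.83 (SE 0.19) and Mme at 0.55 (SE 0.12). Genes of the proximal gut held 0 calls among 7 by edgeR (0 higher and 1 lower at an unadjusted p under 0.05, 0 by DESeq2, 0 higher and 2 lower under epithelial scaling) with summed levels of 583 to 1056 CPM in WT and 463 to 940 CPM in mutants. Some of them differed widely between close pairs of a genotype. Slc40a1 was at 22.7, 22.9, 353 and 351 CPM in WT 1 to 4 and 11.3, 9.41, 7.44, 123 and 124 CPM in mutants 1 to 5. S100g was at 16.9, 15.1, 122 and 123 CPM in WT and 31.3, 6.94, 8.04, 192 and 179 CPM in mutants. Slc11a2 was split in the same order, at 83.6, 80.8, 120 and 126 CPM in WT and 70.8, 54.2, 51.6, 111 and 116 CPM in mutants. So were Cybrd1 and Trpv6, which were low, at up to 5.61 and 3.21 CPM. Heph and Gata4 did not show this split among WT libraries (275 to 294 and 166 to 174 CPM). In mutants 4 and 5, though, Heph was at 342 and 338 CPM, against 261 and 257 CPM in mutants 2 and 3. Gata4 was at 168 and 172 CPM against 146 and 138 CPM in the same libraries. Of 5 tested genes of the distal gut, Clec2h, Amn and Slc10a2 were higher (1 with pairs summed and 1 under epithelial scaling), with summed levels of 3601 to 4479 CPM in WT and 5042 to 6244 CPM in mutants. Most of that sum came from Muc13 and Clec2h, at 2346 and 1430 CPM in WT. Muc13 and Cubn were not called (edgeR adjusted p = 0.089 and 0.98). Slc10a2 was low, at 0.309 to 0.937 CPM in WT and 0.892 to 2.84 CPM in mutants, and its groups overlapped. The part of position along the gut in the sugar gene results was not tested.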

How the data were processed

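Duodenal RNA of 9 mice was measured by sequencing. Per the labels' protocols, polyadenylated RNA was copied from random hexamers with dTTP in the second strand, which does not mark strand. The submitters' processing notes name HISAT2 2.0.5 and featureCounts 1.5.0-p3, and list the builds GRCh37, hg19 and mm39. The coordinates deposited for all 10 sugar genes equal those of GENCODE M21 on GRCm38 and are given as such. The authors deposited raw counts per gene, with a gene length in bases, for 9 libraries of 16119639 to 24009157 reads. The handling of reads shared by genes is not given in the sources used here.

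Libraries were grouped by genotype. Counts were tested in R 4.3.3 with edgeR 4.0.16 (quasi-likelihood, TMM scaling, default filter, robust dispersion, with a term for genotype alone), and p-values were adjusted over 15416 genes. SEs were taken as the log2 fold change over the root of its F statistic. CPM and RPKM are on TMM-scaled library sizes. Log2 ratios of reads (0.5 added to each) were compared by exact permutation. The calling step was checked on simulated counts. DESeq2 1.42.0, voom of limma 3.58.1 and the other alternatives are given under the dependence on processing.

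The 10 genes, the 20 gene lists, the close pairs and the tests were chosen with earlier results of these data known. All members are named, with up to 4 called genes per list by smallest p, the 2 nearest profiles per member, and Pla2g12b. Not every gene that this rule names is reported. Chosen after their values were seen were Slc2a1, Slc5a12, Cdx2, Hnf4a, Gata4, Tas1r3, Ace and Anpep, and the motifs searched. So were Itgam, Slc40a1, S100g, Heph, Slc11a2, Cybrd1, Trpv6, Pdx1, Arrdc4, Mlxipl, Muc13 and Cubn.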

Additional observations from a re-analysis of the deposited data

Results flagged for a closer look

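In the mutant group, mutant 1 stood apart from the other 4 libraries for Slc5a1, at 4813 CPM with the next library at 3646 CPM, and for Slc2a7, at 93.2 CPM with the next at 67.9 CPM. In each case the gap to the nearest library took more of the group's range (0.75 and 0.84) than Dixon's test allows for 5 independent values. Of 34 groups of values tested in this way, chance flags about 1 in 20 where the values are independent. Mutants 2 and 3 and mutants 4 and 5 were close pairs, however, and mutant 1 had no close partner. The limit and that rate therefore do not hold for these libraries, and the flags only describe the gaps. Without mutant 1 the log2 fold change was 0.26 for Slc5a1 (edgeR adjusted p = 0.027) and 0.23 for Slc2a7 (adjusted p = 0.10). Mutant 1 had the lowest TMM factor of the 9 libraries (0.913), and the part of that factor was not tested beyond the fit on library size alone.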

How the results depend on the processing

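The 10 log2 fold changes stayed above 0 in all 26 alternative fits, except where listed here, and no fit called a sugar gene lower. Called higher were 6 of the 10, against 3 under scaling to epithelial genes, 2 with the gene length offset, 0 with close pairs summed, 1 without WT 3 and 4, 3 without mutants 4 and 5, and 2 to 5 when single libraries were left out. Over all genes 2369 were higher, against 316 under epithelial scaling, 1244 with the length offset, 385 with pairs summed, 1186 with the pair as a random effect and 1451 without WT 3 and 4 (1778 to 2280 with single libraries left out). Lower were 2634 genes, against 5896 under epithelial scaling, 1173 with pairs summed and 1650 with the random effect (2271 to 2609 with single libraries left out). Higher genes were 47.4% of calls, 5.09% under epithelial scaling, 28.7% with the length offset and 24.7% with pairs summed. Of 7 ratios none passed, but 5 did without mutants 4 and 5. The cause was not tested for any of these, though fewer libraries or units enter the fits that leave libraries out or sum pairs.

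Directions turned under epithelial scaling for Lct (-0.18), Mgam (-0.17), Treh (-0.10), Slc2a2 (-0.080), Slc2a7 (-0.010), Adap1 (-0.066), Adgrg7 (-0.19), Atl2 (-0.081), Atp1b1 (-0.028), Cdc37l1 (-0.10), Epha1 (-0.12), Fam126b (-0.11), Fuca2 (-0.11), Hexa (-0.021), Ifi35 (-0.20), Ilvbl (-0.013), Isx (-0.058), Mapk8ip3 (-0.19) and Thra (-0.14). The length offset turned Adgrg7 (-0.038) and Ifi35 (-0.14). Leaving out WT 3 and 4 turned Lct (-0.048), Adgrg7 (-0.083), Ifi35 (-0.083) and Slc5a1 over Slc2a2 (-0.13), leaving out WT 1 and 2 turned Mgam (-0.035) and Mapk8ip3 (-0.012), and leaving out mutants 2 and 3 turned Slc5a1 over Slc2a2 (-0.019).

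Replicate numbers were not taken to pair the libraries: same-numbered deviations correlated at 0.036, 0.14, -0.13 and 0.12 over 15416 genes, and numbers 2 and 4 but not 1 and 3 correlated best with their own. With the number as a block, which drops mutant 5, 5 of the 10 were called higher (1711 higher and 2213 lower over all genes), and Slc2a7 was not (adjusted p = 0.11). At the depth of these libraries 3 reads are at most 0.191 CPM, and the lowest sugar gene value was 29.9 CPM (Slc5a4b).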

Other observations

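Pla2g12b itself was at 103, 104, 77.5 and 75.6 CPM in WT 1 to 4 and at 134, 102, 107, 129 and 132 CPM in mutants 1 to 5 (log2 fold change 0.42, SE 0.13, edgeR adjusted p = 0.023). Among the 10 sugar genes its profile over the libraries was nearest to that of Slc5a4a, at a root mean square difference of 0.08 on the log2 scale, which put Slc5a4a at place 33 of 8396 genes. Treh and Lct were at places 318 and 587, and Slc5a4b was the farthest of the 10, at 0.54 and place 7597.

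The peptidases Ace and Anpep showed the split between WT pairs seen for Sis and Slc5a4b. Ace was at 2561 and 2618 CPM in WT 1 and 2, at 1417 and 1418 CPM in WT 3 and 4 and at 2636 to 3963 CPM in mutants (edgeR adjusted p = 0.053). Anpep was at 5090.4 ± 2160 CPM in WT and 8114 ± 1606 CPM in mutants (SD, n = 4 and 5, edgeR adjusted p = 0.078).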
